A study of Mus musculus with 24 samples.

Results

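Gas2, Wwc1, Clca1, Pygm and Fkbp9 are 5 mouse genes outside the phototransduction cascade. The RNA of each stood far higher in retina lacking Nrl than in wild type, though for Clca1 in 1 of 2 probe sets only. They were picked for that difference and for its course over age, Gas2 and Wwc1 as genes peaking at postnatal day 10 (P10), the other 3 as late ones. The array carried 8 probe sets annotated to 1 of these symbols alone, of 10833 probe sets with exactly 1 symbol and 12422 tested. Gas2, Wwc1 and Clca1 had 2 probe sets each, Pygm and Fkbp9 had 1. Their knockout values, and the way these change with age, chose the genes and are therefore given as a description with no test.

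Whole retinas of Nrl-/- mice and of wild-type controls, both on a mixed R1 and C57BL/6 background, were hybridised to 24 Affymetrix arrays. Each genotype was taken at P2, at P10 and at 2 months, which gave 6 groups of 4 replicates. The labels leave unsaid how many animals made up a sample, so every error and p-value here covers the spread among arrays, which may be technical. At P10 the 4 wild-type arrays had Nrl intensities of 123 to 156 and the 4 knockout arrays 44.6 to 56.2. At 2 months these were 129 to 189 and 48.3 to 62.7. Array medians lay between 61.9 and 71.8.

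Nrl is a Maf-family transcription factor that directs photoreceptor precursors to the rod fate. In its absence the cells that would have become rods take on features of short-wavelength cones. Photoreceptors are born before and shortly after birth in the mouse, and their outer segments form in the second postnatal week. None of the 5 proteins carries the light signal. Gas2 binds actin and microtubules and is a substrate of proteases in dying cells. Wwc1 (also called KIBRA) is a scaffold protein upstream of the Hippo kinases. Clca1 is a secreted regulator of calcium-activated chloride channels. Pygm is the muscle form of glycogen phosphorylase, which releases glucose units from glycogen. Fkbp9 is a prolyl isomerase of the endoplasmic reticulum.

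At P10 and 2 months photoreceptor genes differed as the labels would have it, while at P2 few did. Nrl was not called at P2, at 51.3 ± 5.13 in knockout and 60.4 ± 0.74 in wild-type retina (limma log2 difference -0.24 ± 0.11, adjusted p = 0.30). At P2, 1 of 8 rod genes was lower and 1 of 7 cone genes higher. The 8 measured rod genes include Nrl itself. Of them limma (Benjamini-Hochberg adjusted p under 0.05) called 7 lower in the knockout at P10 and 7 at 2 months, Nrl among them at both ages. Of the 7 cone genes 5 were higher at each of these ages and 1 was lower at P10. Over all 8251 genes, each taken by its brightest probe set, 1.1% were higher and 0.618% lower in the knockout at P2, 3.48% and 2.38% at P10, and 5.08% and 3.94% at 2 months. In whole tissue, more cells of a type and more RNA per cell cannot be told apart. This holds for each value below.

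**Figure D1:**
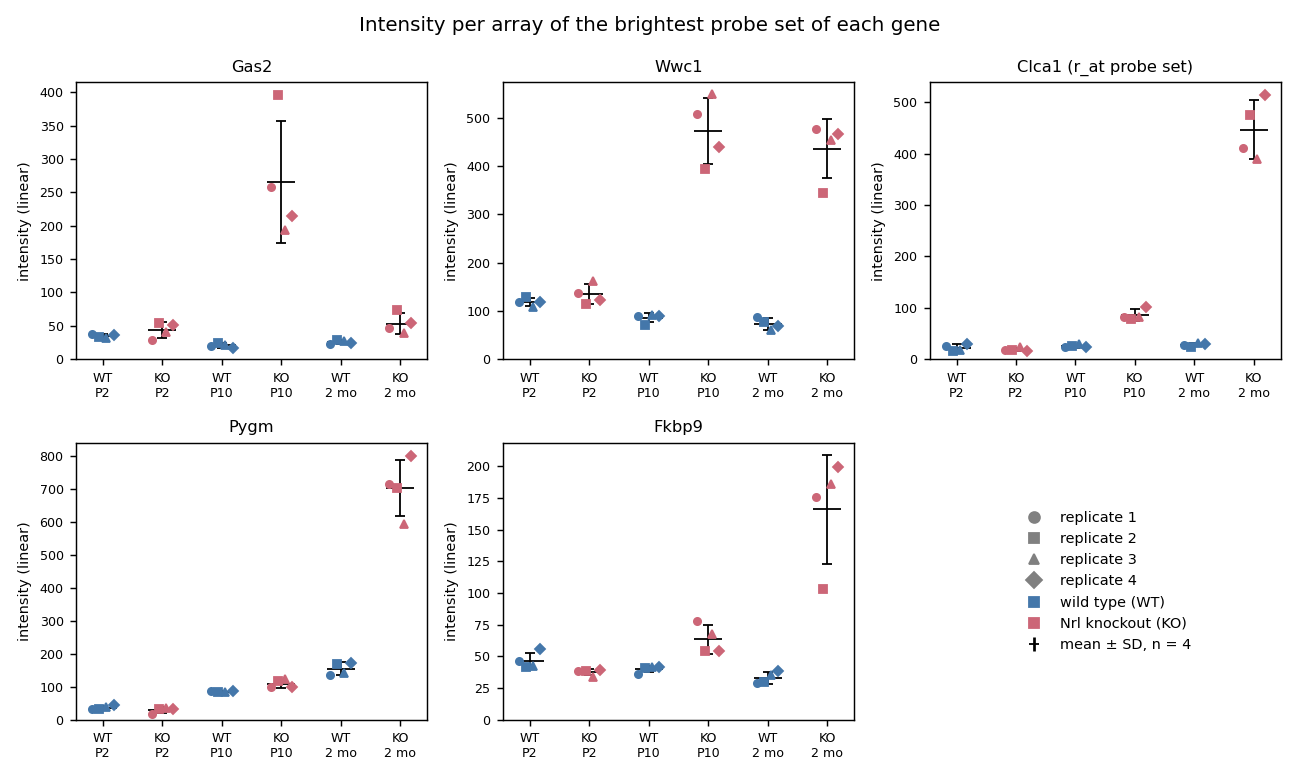
Intensity on the linear scale (vertical axis) of the brightest probe set of each of the 5 genes in the 24 arrays, grouped by genotype and age. Points are arrays, bars are mean ± SD (n = 4). Gas2 was highest in knockout retina at P10, between 194 and 396, and at 2 months it was far lower there but still above wild type. Wwc1 was high in the knockout at P10 and at 2 months, and Clca1, Pygm and Fkbp9 were highest at 2 months.

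The 8 probe sets split by age. At P2 no probe set had its 4 knockout values above its 4 wild-type values. At P10 this held for 7 of 8 and at 2 months again for 7 of 8, the exception at both ages being the dimmer Clca1 probe set. Over all 12422 probe sets the same was true of 2.86% at P2, 5.9% at P10 and 5.67% at 2 months. limma called 1.41%, 4.87% and 7.58% of all probe sets at the 3 ages. As the genes were chosen for this, nothing is read from the comparison.

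Gas2 stood by far the highest in the knockout at P10. In its brighter probe set the 4 knockout arrays at P10 read 259, 396, 194 and 214, and the 4 wild-type arrays 19.5, 24.8, 20.6 and 16.4. The lowest knockout value was 7.83 times the highest wild-type value. The log2 difference, knockout minus wild type, was 3.67 ± 0.19 (limma estimate ± standard error), or 12.7-fold, which was the highest of all 12422 probe sets at that age.

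By 2 months most of this was gone. The knockout arrays read 46.0, 74.2, 39.1 and 53.7 against 22.8, 28.1, 26.7 and 24.5 in wild type, which still did not overlap. The log2 difference was 1.03 ± 0.19, 68th from the top. At P2 the groups overlapped, at 28.8, 54.7, 40.2 and 51.3 in knockout and 37.5, 33.0, 31.5 and 36.6 in wild-type retina (log2 difference 0.30 ± 0.19).

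In wild-type retina Gas2 went the other way between P2 and P10, from 34.6 ± 2.87 to 20.3 ± 3.46 (SD, n = 4), with no overlap. In the knockout it went from 43.8 ± 11.7 to 266 ± 91.1 and back to 53.2 ± 15.2. Ordered by mean, knockout P10 stood apart at the top. Knockout 2 months, knockout P2 and wild-type P2 followed, with ranges that overlapped from each to the next, and wild-type 2 months and wild-type P10 overlapped at the bottom.

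The dimmer Gas2 probe set is annotated to the same transcript accession and lay close to the lowest value in the file, 4.06. Its knockout P10 values were 6.30, 7.46, 6.49 and 6.28, and its wild-type values 4.75, 5.85, 4.91 and 4.63. The groups again did not overlap, and the log2 difference was 0.40 ± 0.10. Knockout P10 was its highest group too, at 6.63 ± 0.56, and the knockout values at 2 months, 5.10 to 6.12, all lay below it. The files hold no detection call, so a level this low cannot be told from background. The size of the Gas2 difference thus rests on the brighter probe set, and whether that one measured Gas2 alone was not tested.

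RefSeq (GRCm38.p6) gives Gas2 a pair of transcription starts, and which of them was in use cannot be read from these probes. The 250 bases before the upstream start (chr7:51861765-51862014, plus strand) are 80.4% G or C. Those before the downstream start (chr7:51878717-51878966, plus strand) are 46% G or C, against a median of 52.4% over all 32851 such windows. The downstream window is shown since it alone of the Gas2 pair held a match to a motif searched. Capitals mark E-box letters (CANNTG).
Gas2 downstream start: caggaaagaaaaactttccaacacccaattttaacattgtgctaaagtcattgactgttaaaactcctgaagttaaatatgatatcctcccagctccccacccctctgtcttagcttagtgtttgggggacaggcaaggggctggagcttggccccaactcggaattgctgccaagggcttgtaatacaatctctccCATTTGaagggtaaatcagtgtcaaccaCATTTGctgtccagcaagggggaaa
It held 2 matches, with first bases 53 and 25 before the start. An E-box was present in 66.2% of all windows, so these matches are a description and no sign of a factor.

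Wwc1 reached its high level at P10 and kept it, which is a plateau, so the data go against its grouping with Gas2 as a P10 peak. In its brighter probe set the knockout arrays read 508, 394, 549 and 440 at P10 and 478, 345, 455 and 466 at 2 months. The ranges at the 2 ages overlapped. Wild-type arrays read 88.9, 71.3, 91.7 and 89.8 at P10 and 87.0, 77.8, 59.4 and 68.2 at 2 months, far below every knockout array of those ages.

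The log2 difference was 2.46 ± 0.13 at P10 and 2.58 ± 0.13 at 2 months, 5.52-fold and 5.98-fold. These were the 6th and the 8th highest of all probe sets at their age. The step between the 2 ages was 0.12 ± 0.18, less than its standard error, whereas that of Gas2 was -2.64 ± 0.28. At P2 the genotypes overlapped, at 137, 115, 162 and 123 in the knockout and 118, 129, 108 and 118 in wild type.

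Wild-type Wwc1 was lower at each later age, at 118 ± 8.70, 85.4 ± 9.49 and 73.1 ± 11.9. The P2 and P10 ranges did not overlap, and those of P10 and 2 months did.

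The dimmer Wwc1 probe set, annotated to another accession, had the same course on a smaller scale. Its knockout arrays read 152, 130, 156 and 118 at P10 and 165, 153, 129 and 161 at 2 months, and its wild-type arrays lay between 56.3 and 67.3 at both ages. The log2 differences were 1.21 ± 0.10 and 1.27 ± 0.10. Its wild-type means, 63.7, 59.9 and 62.7, overlapped at all 3 ages, so the lower wild-type level with age was seen in the brighter probe set and not in this one. Here the 2-month mean of the knockout, 152 ± 16.5, was the higher one.

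The 250 bases before the RefSeq start of Wwc1 (chr11:35980528-35980777, minus strand, GRCm38.p6) are 67.2% G or C. They are shown, written in the direction of the gene, because the probe sets nearest to Wwc1 over the 24 arrays include those of cone genes (described further on).
Wwc1: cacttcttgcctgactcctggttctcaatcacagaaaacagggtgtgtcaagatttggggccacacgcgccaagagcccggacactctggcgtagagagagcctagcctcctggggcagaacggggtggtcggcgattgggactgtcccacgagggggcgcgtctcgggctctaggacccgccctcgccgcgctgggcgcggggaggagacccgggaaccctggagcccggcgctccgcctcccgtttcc
No match was found here, on either strand, to the CRX and OTX core TAATCC, the Maf half-site TGCTGA, the nuclear receptor half-site AGGTCA, the TEAD site GGAATG or the E-box. Over all windows these letters were present in 6.25%, 16.1%, 14%, 12.6% and 66.2%. This says only that the letters are not in this window.

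**Figure D2:**
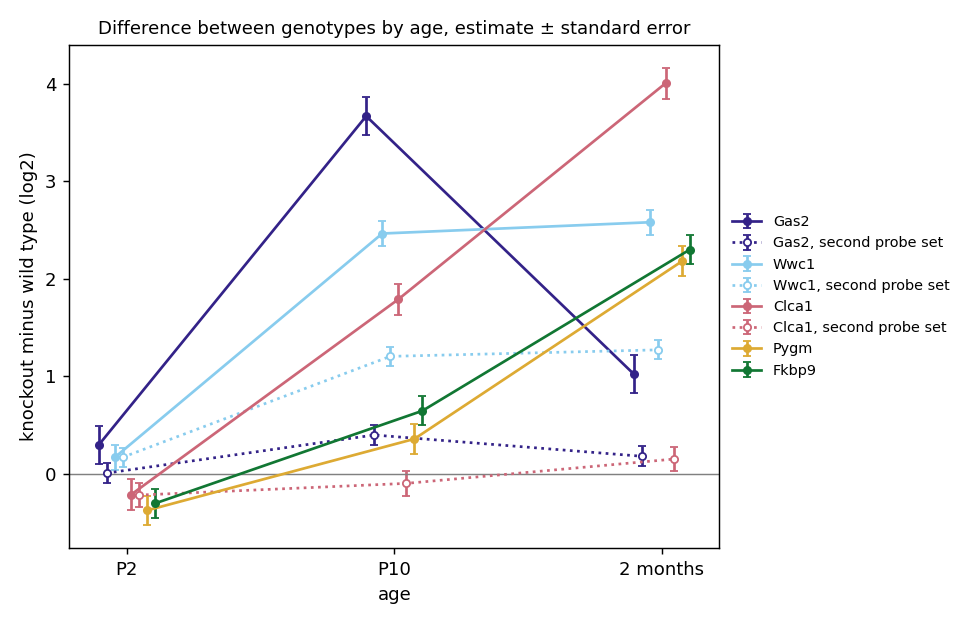
Log2 difference, knockout minus wild type (vertical axis), at P2, P10 and 2 months (horizontal axis) for the 8 probe sets, with bars of 1 standard error. Solid lines are the brightest probe set of each gene and dotted lines the second one. Gas2 peaked at 3.67 at P10, Wwc1 was level between P10 and 2 months, and Clca1, Pygm and Fkbp9 climbed to 4.01, 2.18 and 2.30.

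Clca1 had the highest difference of any probe set at 2 months, but its 2 probe sets did not go together. In the brighter one the knockout arrays read 411, 474, 389 and 514 at 2 months, and the wild-type arrays 26.7, 23.97, 32.0 and 28.6. The lowest knockout value was 12.2 times the highest wild-type value. The log2 difference was 4.01 ± 0.16, or 16.1-fold.

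This difference was already present at P10. The knockout arrays then read 81.3, 77.8, 82.1 and 102 against 22.8, 24.7, 28.9 and 22.9, with a log2 difference of 1.79 ± 0.16, the 9th highest of all probe sets. On the linear scale the gap between the group means at P10 was 61.1, which is 14.6% of the gap of 419 at 2 months. At P2 the knockout read 18.02, 17.7, 23.6 and 14.9 and the wild type 25.3, 15.7, 16.8 and 30.2, which overlapped. The wild-type level stayed between 15.7 and 32.0 over the 12 wild-type arrays, with ranges that overlapped at all 3 ages.

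The dimmer Clca1 probe set showed none of this. It read 13.6, 14.3, 15.7 and 11.9 in the knockout and 15.5, 12.5, 11.2 and 10.99 in wild type at 2 months, and its groups overlapped at every age. Its log2 differences were -0.22 ± 0.13, -0.10 ± 0.13 and 0.15 ± 0.13 at P2, P10 and 2 months. Of the pair, this is the one that the annotation ties to a transcript accession. The brighter one is annotated to Clca1 with no accession, and the letter r in its name marks probes chosen with some design rules dropped. Whether it measured Clca1 alone was not tested, and the Clca1 result rests on that probe set.

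Clca3a1, the only other Clca gene with a probe set of 1 symbol, read between 6.61 and 8.76 in all 24 arrays, near the lowest values of the file, and was not called at any age (limma adjusted p = 0.79, 0.50 and 0.31). Goblet cells of surface epithelia are the best known source of Clca1. Of 16 measured genes of surface and goblet epithelium limma called 0 at 2 months (0 at an unadjusted p under 0.05) and 1, Krt18, as higher at P10. At 2 months the 4 knockout arrays had sums of 1295 to 1523 over this list and the wild-type arrays 1329 to 1486. Over all genes 3.48% were called higher and 2.38% lower at P10, and 5.08% and 3.94% at 2 months. The counts for these 16 genes lie near those shares, and nothing is read from them.

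**Figure D3:**
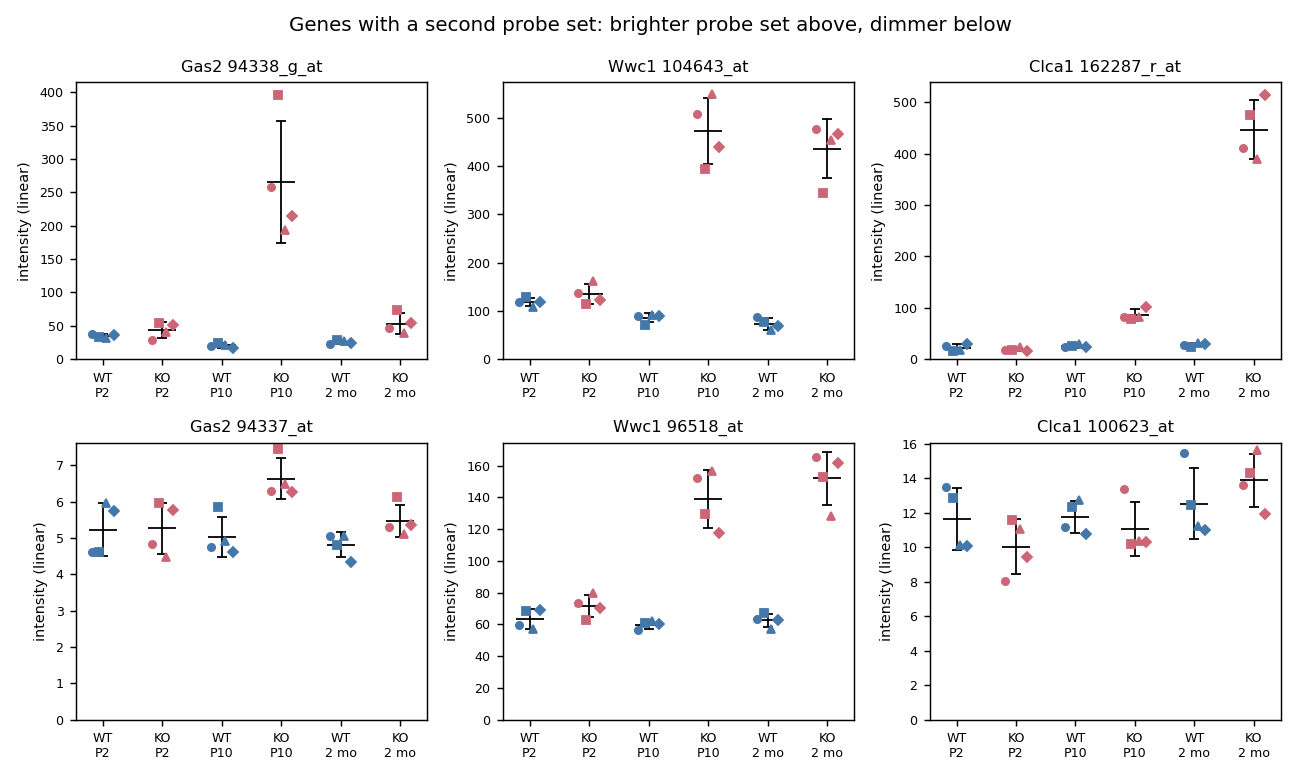
Intensity on the linear scale (vertical axis, a separate scale per panel) of both probe sets of Gas2, Wwc1 and Clca1 in the 24 arrays, blue for wild type and red for knockout, symbols for replicates as in the plot of all 5 genes, bars for mean ± SD (n = 4). The Wwc1 pair has the same shape, the dim Gas2 probe set is highest at knockout P10 like the bright one, and the dimmer Clca1 probe set shows no separation of the genotypes.

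Pygm intensity climbed with age in wild-type retina. Wild-type arrays read 32.2, 34.0, 38.5 and 43.7 at P2, 86.6, 82.9, 85.0 and 86.1 at P10 and 135, 169, 143 and 172 at 2 months. The 3 ages did not overlap, and the wild-type step was 1.21 ± 0.15 log2 units from P2 to P10 and 0.86 ± 0.15 from P10 to 2 months.

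In knockout retina the climb was steeper, by 1.94 ± 0.15 log2 units from P2 to P10 and by 2.68 ± 0.15 from P10 to 2 months. The knockout arrays read 17.1, 32.5, 34.7 and 34.0 at P2 and 98.5, 117, 123 and 101 at P10, and at 2 months 715, 701, 593 and 799. At P10 all 4 knockout arrays lay above the wild-type ones, by a small gap, with a log2 difference of 0.36 ± 0.15. That placed Pygm 298th among all probe sets. At 2 months the difference was 2.18 ± 0.15, or 4.53-fold, the 13th highest.

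The gap between group means at P10, 24.6, was 4.50% of that at 2 months, 547, a smaller share than the 14.6% of Clca1. At P2 the mean was lower in the knockout, at 29.6 ± 8.34 against 37.1 ± 5.13, with overlap. The knockout P2 array of replicate 1, at 17.1, was the lowest of its group by far, and it also had the lowest median of all arrays, 61.9. Without it the P2 log2 difference went from -0.37 to -0.13.

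Pygm is known from skeletal muscle. Of 16 measured skeletal muscle genes limma called 0 at 2 months (0 at an unadjusted p under 0.05). Their summed intensity was 832 to 992 in knockout and 897 to 989 in wild-type retina. Over all genes 5.08% were called higher and 3.94% lower at that age, so nothing is read from 0 of 16. The brain form, Pygb, the only other glycogen phosphorylase with a probe set of 1 symbol, read 123 ± 11.9 in knockout and 119 ± 7.85 in wild-type retina at 2 months (limma log2 difference 0.05 ± 0.08, adjusted p = 0.93).

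The 250 bases before the RefSeq start of Pygm (chr19:6384158-6384407, plus strand, GRCm38.p6) are shown because they carry matches to the E-box, the kind of site at which basic helix-loop-helix proteins bind. Capitals mark E-box letters.
Pygm: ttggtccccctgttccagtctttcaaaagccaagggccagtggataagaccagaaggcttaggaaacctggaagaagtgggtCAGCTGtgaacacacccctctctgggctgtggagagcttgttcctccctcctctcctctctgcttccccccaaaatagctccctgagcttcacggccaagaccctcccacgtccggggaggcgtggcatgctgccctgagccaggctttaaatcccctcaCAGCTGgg
There were 2 matches, both spelled CAGCTG, with first bases 168 and 8 before the start. With an E-box in 66.2% of all windows, these matches are a description and no sign of a factor. The other 4 motifs had no match in this window, 58.4% of which is G or C.

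Fkbp9 stood apart between the genotypes at 2 months, with a knockout spread on the log2 scale (SD 0.43) wider than that of Clca1 (0.19) or Pygm (0.18). Its knockout arrays at 2 months read 176, 103, 186 and 199 and the wild-type arrays 28.8, 29.5, 35.3 and 38.2. The groups stood apart, although replicate 2 of the knockout lay well below the other three. The log2 difference was 2.30 ± 0.15, or 4.93-fold, the 10th highest of all probe sets.

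At P10 the knockout read 77.7, 54.0, 67.4 and 54.2 and the wild type 36.1, 40.7, 41.6 and 41.6, with a log2 difference of 0.65 ± 0.15, 87th from the top. The P10 gap between group means was 17.5% of the 2-month gap. At P2 the order was turned. All 4 knockout arrays, at 38.5, 38.8, 33.7 and 39.1, lay below all 4 wild-type arrays, at 46.0, 42.0, 42.1 and 55.8. Fkbp9 was the 1 of the 8 probe sets for which this held, and it held for 2.69% of all probe sets.

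Wild-type Fkbp9 averaged 46.4 ± 6.49, 40.0 ± 2.64 and 32.9 ± 4.52 at the 3 ages, with no overlap between P2 and P10 (lowest 42.0 against highest 41.6) and with overlap between P10 and 2 months. In the order of the 6 means, knockout 2 months stood alone at the top. Knockout P10 overlapped with wild-type P2, and wild-type P10, knockout P2 and wild-type 2 months overlapped from each to the next.

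The 250 bases before the RefSeq start of Fkbp9 (chr6:56831809-56832058, plus strand, GRCm38.p6), 57.6% G or C, are shown beside those of Pygm, whose difference at 2 months was of like size.
Fkbp9: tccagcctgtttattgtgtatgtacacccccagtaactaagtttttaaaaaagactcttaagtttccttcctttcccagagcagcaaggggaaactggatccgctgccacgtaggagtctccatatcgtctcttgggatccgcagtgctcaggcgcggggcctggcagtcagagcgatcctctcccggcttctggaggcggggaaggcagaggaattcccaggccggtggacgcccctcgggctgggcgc
None of the 5 motifs was matched in it. For Clca1 no promoter sequence is printed.

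Set side by side, the 3 late genes differed in how much of the difference was there at P10. From P10 to 2 months the log2 difference went up by 2.22 ± 0.22 for Clca1, 1.82 ± 0.22 for Pygm and 1.65 ± 0.21 for Fkbp9. From P2 to P10 it had gone up by 2.00 ± 0.22, 0.73 ± 0.22 and 0.95 ± 0.21. By its brighter probe set Clca1 went up in both intervals, while most of the change of Pygm and Fkbp9 came after P10. For Gas2 and Wwc1 the step from P2 to P10 was 3.37 ± 0.28 and 2.29 ± 0.18.

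Several marker lists differed between the genotypes at 2 months, beside the late genes. Of 13 measured genes of reactive glia limma called 1 higher at P10 and 8 higher and 1 lower at 2 months, where 3.48% and 2.38% of all genes were higher and lower at P10 and 5.08% and 3.94% at 2 months. Their sums were 1263 to 1318 in the knockout arrays against 1089 to 1225 at P10, and 1688 to 2087 against 1252 to 1308 at 2 months. The median log2 intensity over these genes, taken per array, overlapped between the genotypes at both ages. It was 5.73 to 5.86 in the knockout against 5.79 to 5.90 at P10, and 6.32 to 6.63 against 6.11 to 6.49 at 2 months. Of 9 Müller glia genes 1 was higher and 1 lower at P10 and 3 were higher at 2 months, with sums of 4967 to 5236 in the knockout against 3221 to 3637 in wild type at P10 and 6381 to 7532 against 4952 to 5507 at 2 months. The Müller sums thus stood apart at P10 already, but the median log2 intensity over these genes went the other way. Per array it was 7.58 to 7.74 in the knockout and 7.75 to 8.09 in wild type at P10. Apoe was the gene called higher there (log2 difference 1.16) and Aqp4 the gene called lower (-0.73). At 2 months the medians overlapped, at 9.04 to 9.32 against 8.97 to 9.08. Of 15 microglia and macrophage genes 3 were higher at 2 months, with sums of 1094 to 1181 against 1006 to 1074. Their medians overlapped at that age, at 5.66 to 6.04 against 5.62 to 5.79. Of 7 retinal pigment epithelium genes 3 were lower at P10 and 1 was higher at 2 months. The 2-month sums of that list were 489 to 537 in the knockout against 423 to 478, and its medians overlapped, at 6.29 to 6.59 against 5.94 to 6.34. Of 10 lens genes 3 were lower at 2 months (7 at an unadjusted p under 0.05), with sums of 834 to 1408 against 2101 to 3313 and a median log2 difference of -1.44, against 0.72 at P10. Their part in the values of Clca1, Pygm and Fkbp9 was not tested. The summed cone list ran from 8525 to 10122 in knockout P10 and from 14371 to 17348 in knockout 2-month retina, against 2186 to 2425 and 2503 to 2845 in wild type. Its part in the values of Gas2 and Wwc1 was not tested either.

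The probe sets of other genes most like each of the 5 were found by the Pearson correlation of log2 intensity over the 24 arrays. The arrays of a group share age and genotype, so these correlations carry no p. Over the 6 group means other probe sets came nearer in part. By that measure Dbp, H2-K1 and Ptprn ranked 53rd, 64th and 55th for Pygm, and Acbd6 ranked 23rd for Clca1 and 16th for Fkbp9, while the other genes named were within the first 13. Wwc1 was nearest to Gngt2, a cone transducin gamma subunit (r = 0.98), Rxrg, a nuclear receptor of cones (r = 0.98), and Sall3, a zinc finger gene (r = 0.96). Gngt2 was high at both later ages and, unlike the brighter Wwc1 probe set, had its higher knockout mean at the last. It stood at 709 ± 24.1 in knockout P10 and 889 ± 38.3 in knockout 2-month retina, against 108 ± 12.1 and 106 ± 7.003 in wild type. Rxrg stood at 178 ± 3.82 and 199 ± 12.8 against 68.5 ± 2.07 and 63.9 ± 1.68, and, as for Wwc1, its wild-type level was highest at P2, at 88.9 ± 5.96. Sall3 was lower at the last age in the knockout, at 292 ± 37.5 at P10 and 230 ± 6.01 at 2 months.

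Gas2 was nearest to Cited1, a transcriptional coactivator (r = 0.93), Mtnr1a, a melatonin receptor (r = 0.92), and Spint1, a protease inhibitor (r = 0.91). Mtnr1a lost nearly all of its difference by 2 months. It stood at 56.4 ± 4.22 in knockout P10 retina and at 25.8 ± 1.71 in knockout 2-month retina, where wild type was at 24.6 ± 0.42 (log2 difference 0.07 ± 0.08). Cited1 and Spint1 kept part of the difference at 2 months, with log2 differences of 0.67 ± 0.09 and 0.57 ± 0.09 after 1.28 ± 0.09 and 1.30 ± 0.09 at P10.

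Clca1 was nearest to Cckbr, a cholecystokinin receptor (r = 0.97), Map6, a microtubule-stabilising protein (r = 0.97), and Acbd6, an acyl-CoA-binding protein (r = 0.95). Map6 stood at 206 ± 8.42 in knockout P10 and 454 ± 34.0 in knockout 2-month retina, against 135 ± 12.8 and 152 ± 10.3 in wild type. Fkbp9 was nearest to Bcat1, the cytosolic branched-chain aminotransferase (r = 0.94), to Acbd6 again (r = 0.91) and to Smim14 (r = 0.91). Bcat1 stood at 1016 ± 94.1 and 1367 ± 100.2 in the knockout and at 737 ± 50.05 and 695 ± 37.5 in wild type at P10 and 2 months.

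Over the 24 arrays Pygm was nearest to genes that climb in wild-type retina as well, namely Dbp, a clock-controlled transcription factor (r = 0.97), the class I histocompatibility gene H2-K1 (r = 0.97) and Ptprn, a protein of secretory granules (r = 0.97). Dbp stood at 46.5, 82.7 and 144 in wild-type retina and at 44.7, 84.1 and 226 in the knockout over the 3 ages. H2-K1, whose probes may also bind related class I RNAs, stood at 73.3, 86.2 and 147 in wild type and at 66.4, 97.0 and 247 in the knockout.

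Over the other measured genes of the 5 pathways limma called 1 gene at P2, 4 at P10 and 16 at 2 months. Their differences were all smaller than those of the brightest probe sets of the 5 genes at their highest age. The 5 genes were chosen for large rises, so nothing is read from this or from like comparisons with them below. The median log2 difference over all genes was -0.01, 0.02 and -0.01. The pathway counts below leave the 5 genes out and are read against the shares of all genes given above.

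Of 18 measured genes of glycogen metabolism other than Pygm limma called 0 at P2, 0 at P10 (3 each at an unadjusted p under 0.05) and 2 at 2 months. Ppp1r3c, a subunit that targets protein phosphatase to glycogen, rose by 0.35 ± 0.08 (adjusted p = 0.00373). Gys1, the glycogen synthase of most tissues, fell by 0.25 ± 0.08 (adjusted p = 0.0371), a call lost in 8 of 31 alternative fits, namely with only the arrays compared, with the replicate number as a block, and without 1 array of that age (knockout replicate 1, 2 or 4, wild-type replicate 2, 3 or 4; up to 0.146). The list's median log2 difference at 2 months was -0.01, equal to that of all genes. Pygm itself stood at 2.18.

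Of 24 measured Hippo pathway genes other than Wwc1 limma called 0 at P2 (4 at an unadjusted p under 0.05), 1 lower at P10 and 2 higher and 1 lower at 2 months, with medians of -0.01, 0.03 and -0.01. Taok3, a kinase that can act above the Hippo kinases, fell by 0.42 ± 0.11 at P10 (adjusted p = 0.0191, a call lost without knockout P10 replicate 1 or wild-type P10 replicate 2 or 3, up to 0.1002) and by 0.82 ± 0.11 at 2 months (adjusted p = 3.15e-06). Its other probe set fell at both ages too, by 0.62 and by 1.07 (adjusted p = 0.000129 and 7.14e-09). Frmd6, a membrane-linked protein upstream of the pathway, rose at 2 months from 46.5 ± 1.31 to 81.2 ± 10.3 (log2 difference 0.80 ± 0.08, adjusted p = 1.48e-08). Amot, which binds the effector Yap1, rose by 0.45 ± 0.11 (adjusted p = 0.00616). Wwc2, a paralogue of Wwc1, was not called at any age, with log2 differences of -0.18 ± 0.12, 0.01 ± 0.12 and -0.31 ± 0.12 (adjusted p = 0.54, 1.00 and 0.18).

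Of 23 measured genes of calpains and actin binding other than Gas2 limma called 0 at P2 (3 at an unadjusted p under 0.05), 1 higher and 1 lower at P10 and 2 lower at 2 months. The medians were 0.06, 0.02 and -0.04. Actn1, an actin crosslinker, fell by 0.46 ± 0.07 at P10 (adjusted p = 3.48e-05) and by 0.53 ± 0.07 at 2 months (adjusted p = 2.1e-06) in the probe set used here. The other 2 for this gene were not called at P10 (log2 differences -0.14 and -0.09), and 1 of them fell at 2 months, by 0.42 (adjusted p = 0.0055). Rdx, radixin, which links actin to the membrane, rose by 0.35 ± 0.09 at P10 (adjusted p = 0.0271, a call lost in 7 of 31 alternative fits, among them those without knockout P10 replicate 1, 2 or 4 or wild-type P10 replicate 1, 2 or 3; up to 0.107). Flna, filamin A, fell by 0.31 ± 0.09 at 2 months (adjusted p = 0.0335, a call lost in 7 of 30 alternative fits, among them the replicate block and those without knockout 2-month replicate 1 or 4 or wild-type 2-month replicate 1 or 3; up to 0.194). The pseudocount of 16 and the fit to only the arrays compared also ended the Flna call. Its intensity was low, at means of 10.1 in knockout and 12.5 in wild-type retina at 2 months. At P10 the 0.35 of Rdx was the highest log2 difference in this list, against 3.67 for Gas2.

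Of 14 measured chloride channel and carrier genes other than Clca1 limma called 0 at P2 (1 at an unadjusted p under 0.05), 1 higher at P10 and 2 higher at 2 months, with medians of -0.04, 0.04 and 0.01. Clic4, an intracellular chloride channel protein, rose by 0.38 ± 0.11 at P10 (adjusted p = 0.0311, a call lost with quantile normalisation and without knockout P10 replicate 2 or 4 or wild-type P10 replicate 1 or 2, up to 0.17) and by 0.67 ± 0.11 at 2 months (adjusted p = 4.21e-05). Its other 2 probe sets gave larger values. At P10 1 of them rose by 0.77 (adjusted p = 1.4e-06) and the other stood at 0.72 (adjusted p = 0.0517), and at 2 months both rose, by 1.25 and 1.28 (adjusted p = 4.88e-11 and 0.000107). Clcn3, a chloride-proton exchanger of endosomes, rose at 2 months by 0.47 ± 0.07 (adjusted p = 1.42e-05). Its other probe sets stood at 0.55, 0.45 and 0.38 at that age (adjusted p = 0.000867, 0.00155 and 0.0771), the last of them not called.

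Of 27 measured FK506-binding protein and endoplasmic reticulum folding genes other than Fkbp9 limma called 1 higher at P2, 0 at P10 (5 at an unadjusted p under 0.05) and 5 higher and 2 lower at 2 months, with medians of 0.10, 0.04 and 0.04. At P2 the protein disulfide isomerase Pdia3 rose by 0.57 ± 0.12 (adjusted p = 0.0112, a call lost without knockout P2 replicate 4 or wild-type P2 replicate 1, or with only the arrays compared, up to 0.0636). At 2 months its relative Pdia6 rose by 0.60 ± 0.14 (adjusted p = 0.00477), the chaperone Hspa5 (BiP) by 0.50 ± 0.12 (adjusted p = 0.00764, and 0.0589 without knockout 2-month replicate 1) and Pdia3 by 0.46 ± 0.12 (adjusted p = 0.0123, and 0.0835 without that array; also lost without wild-type 2-month replicate 1). P4ha1, a collagen prolyl hydroxylase, fell by 0.52 ± 0.07 (adjusted p = 7.92e-06) and the oxidase Ero1a by 0.49 ± 0.10 (adjusted p = 0.000722). Among 10 other genes named Fkbp, 2 rose at 2 months, Fkbp2 by 0.45 ± 0.09 (adjusted p = 0.000581) and Fkbp4 by 0.24 ± 0.08 (adjusted p = 0.0475, a call lost in 20 of 31 alternative fits, the replicate block included, up to 0.160). At 2 months the log2 differences of these 10 genes lay between -0.07 and 0.45, against 2.30 for Fkbp9.

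Whether the effect of the knockout on these other pathway genes changed with age was tested as an interaction. From P2 to P10 limma called 1 gene of the 5 lists, Actn1, as changing downward, where 1.53% of all genes changed upward and 1.19% downward. From P10 to 2 months it called Frmd6 as changing upward and P4ha1 downward, where the shares of all genes were 1.47% and 1.33%. The Actn1 change is that of its brightest probe set, and the other Actn1 probe sets were not called at P2 or at P10.

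**Figure D4:**
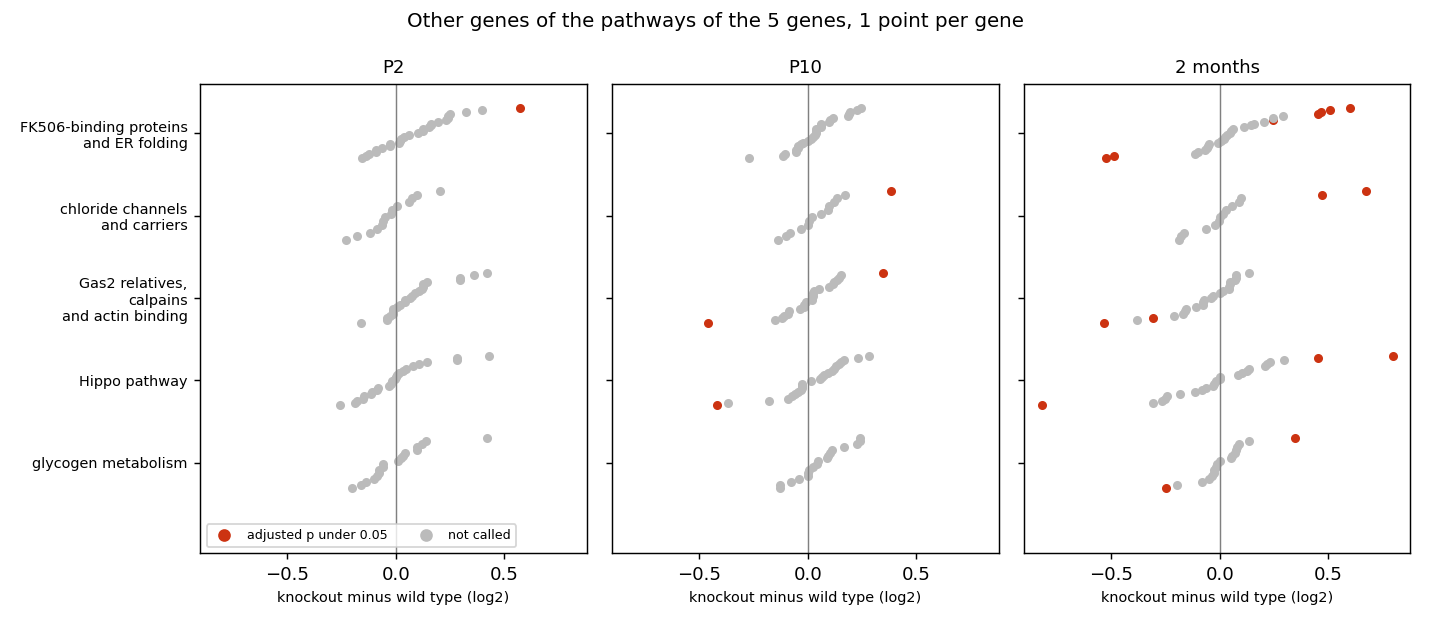
Log2 difference, knockout minus wild type (horizontal axis), of the other measured genes of the 5 pathways (1 point per gene, in rows by list and sorted within each) at P2, P10 and 2 months, with calls by limma at an adjusted p under 0.05 in red. Among these points the highest at 2 months is Frmd6 at 0.80 and the lowest is Taok3 at -0.82.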

How the data were processed

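Total RNA was biotin-labelled and hybridised to 24 arrays. Per the submitters' processing notes the authors used RMA, and each array has 1 deposited intensity value per probe set, not on a log scale. No version is named, and the set of arrays that went into 1 RMA run is not given in the sources used here. Gene symbols come from GEO's platform annotation, updated by gene number through RefSeq, and no symbol of the 5 genes changed. The 66 array controls were left out.

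Log2 intensity was fitted with limma 3.58.1 in R 4.3.3, as 6 group means over the 24 arrays, with Benjamini-Hochberg adjustment within a contrast over the 12422 probe sets. The step was tested on simulated data. The number of arrays limits the precision. A gene was represented by its brightest probe set. Named genes were the probe sets of the 5 genes, the 3 most correlated probe sets of other genes for each, up to 4 called genes per pathway list and age with the largest change, close relatives, and Nrl. The members and lists were chosen with earlier results of these data known. Motifs were searched on both strands of the 250 bases before each RefSeq start. Alternatives were quantile normalisation, median centring, a pseudocount of 16, a filter on dim probe sets, a fit to only the arrays compared, the replicate number as a block, array weights, a 2-fold threshold, group medians, other probe sets and leaving out each array. Figures were drawn with matplotlib 3.10.9.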

Additional observations from a re-analysis of the deposited data

Results flagged for a closer look

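Of the 48 sets of 4 arrays formed by 8 probe sets and 6 groups, 5 held a value far from the other three by Dixon's criterion, where chance flags about 1 in 20. These were the brighter Wwc1 probe set in wild-type P10 replicate 2 (71.28), the dimmer Clca1 probe set in knockout P10 replicate 1 (13.39), Pygm in knockout P2 replicate 1 (17.13), and Fkbp9 in knockout P2 replicate 3 (33.66) and in wild-type P10 replicate 1 (36.09).

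Among the named pathway genes, the knockout effect differed between ages for 3, by limma's interaction contrast. The effect on Actn1 went down by 0.59 ± 0.10 log2 units from P2 to P10 (-0.59, adjusted p = 0.000322). From P10 to 2 months that on Frmd6 went up by 0.57 ± 0.11 (adjusted p = 0.0026) and that on P4ha1 went down by 0.41 ± 0.11 (-0.41, adjusted p = 0.0301). The Actn1 change is that of its brightest probe set. The other Actn1 probe sets had log2 differences of 0.19 and 0.02 at P2 and of -0.14 and -0.09 at P10, none of them called.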

How the results depend on the processing

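Each log2 difference of the 5 genes kept its sign under quantile normalisation, median centring, the replicate block, group medians and without each array of its age, and moved by less than the spread between replicates there, with 1 exception, the P10 minus 2-month difference of Fkbp9, which went from -1.65 to -1.93 by group medians. A pseudocount of 16 brought Gas2 to 2.91 at P10, 0.72 at 2 months and 2.19 for P10 minus 2 months, Wwc1 to 2.26 and 2.34 at P10 and 2 months, Clca1 to 1.32 and 3.40, and Fkbp9 to 1.86 at 2 months and -1.37 for P10 minus 2 months, since it adds the same amount to both genotypes. The other Gas2 probe set gave 0.40, 0.18 and 0.22 for P10, 2 months and P10 minus 2 months, the other Wwc1 probe set 1.21 and 1.27 for P10 and 2 months, and the other Clca1 probe set -0.10, 0.15 and -0.25, so the sign at P10 turned. The cause was not tested. Low intensities of Gas2 and Clca1 in wild type, where no detection call is given, limit how exact their fold is.

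limma called 175, 605 and 942 probe sets at P2, P10 and 2 months (1.41%, 4.87% and 7.58%), 10, 73 and 139 of them by at least 2-fold. The P2 count was 41 with only the arrays compared and 414 with array weights, and 84 to 552 without 1 array (lowest without knockout P2 replicate 4, highest without knockout P2 replicate 3). The P10 count was 1401 with array weights. Of the called probe sets at P10, 57.9% were higher, against 50.1% with quantile normalisation and 67.7% with array weights. Over the 5 pathway lists together, the 1, 4 and 16 called genes became 2 at P2 with quantile normalisation, the pseudocount or the filter, 0 with only the arrays compared and 3 with the replicate block or array weights, and 13 at P10 with array weights. Without 1 array they were 0 to 7 at P2 (7 without knockout P2 replicate 3) and 1 to 5 at P10 (1 without wild-type P10 replicate 2).

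Same-numbered knockout and wild-type arrays of an age did not deviate together throughout. The correlation of their deviations over probe sets was above 0.1 in 2 of 4 pairs at P2, 1 at P10 and 3 at 2 months, and ran from -0.18 to 0.54. The replicate block called 229, 671 and 997 probe sets at the 3 ages. It ended the 2-month calls of Gys1, Flna and Fkbp4 and no other call of a named pathway gene. Of 12 knockout arrays, 0 at P2, 1 at P10 and 2 at 2 months correlated best with the wild-type array of their own number.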

Other observations

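Replicate 2 of the knockout stood at an end of its group for several of the 5 genes at more than 1 age. It was the highest knockout array for the brighter Gas2 probe set at P2, P10 and 2 months, at 54.7, 396 and 74.2, and for the dimmer one, at 5.96, 7.46 and 6.12. It was the lowest for the brighter Wwc1 probe set at all 3 ages, at 115, 394 and 345, and for Fkbp9 at P10 and 2 months, at 54.0 and 103. In the dimmer Wwc1 probe set it was the lowest at P2 alone, at 62.9. Replicate 4 was the lowest there at P10 (118) and replicate 3 at 2 months (129). For Pygm replicate 2 was at neither end at any age. The labels do not say that arrays of different ages with 1 number have anything in common. Over all probe sets, deviations from the group mean of same-numbered knockout arrays of different ages correlated above 0.1 in 11 of 12 pairs (median 0.32), and those of wild-type arrays in 9 of 12 (median 0.20). What the numbers share was not tested.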
